A study of Mus musculus with 4 samples.

Results

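Receptors for interleukins, colony stimulating factors and interferons were followed in mouse spleen cells cultured with and without imatinib. The set was taken by gene name: array probes whose name in the scanner files is an interleukin receptor (Il, digits, r), without the receptor antagonist Il1rn, together with Il6st, Csf2ra, Csf2rb, Csf2rb2, Csf3r, Ifngr1, Ifngr2, Ifnar1 and Ifnar2. It held 67 of the 39429 probes on the array, for 49 of 31829 gene names. A probe was tested when its signal was well above background throughout the imatinib group, the control group or both, which held for 48 probes of 40 genes.

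Splenocytes of female C57BL/6 mice aged 8 weeks were kept for 72 h in medium with IL-4, a T cell cytokine, and LPS, a bacterial ligand of Toll-like receptor signalling. Both groups received IL-4 and LPS, which drive B cell activation and class switching, so there were no unstimulated cells. The treated group also received 10 µM imatinib, a tyrosine kinase inhibitor that acts on ABL, KIT and the PDGF receptors, and the control group received none. RNA of each group was measured on 2 arrays with 1 dye. Nothing in the labels ties the replicates to separate mice or separate cultures, so p-values measure only the spread between these samples, which may be technical. The cells were a whole spleen culture and not a purified B cell population: all 9 B cell markers on the fixed list were above background on all 4 arrays, and markers of T cells, macrophages, neutrophils and mast cells were measured as well.

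Most of these receptors are built from a chain that binds its own cytokine and a partner chain shared by several cytokines. The common gamma chain (Il2rg) is shared by the receptors of IL-2, IL-4, IL-7, IL-9, IL-15 and IL-21, the common beta chain (Csf2rb) by those of IL-3, IL-5 and GM-CSF, and gp130 (Il6st) by those of IL-6, IL-11 and IL-27. Interferon and IL-10 receptors pair a ligand-binding chain with an accessory chain, all of these signal through JAK kinases and STAT factors, and IL-1 family receptors signal instead through MyD88. Splenic B cells, T cells and myeloid cells carry different subsets of these chains.

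Values are log2 processed signals minus the 75th percentile of the array (normalised log2 signal), and a difference is imatinib minus control on this scale, with its standard error (SE). A gene was called higher or lower at an adjusted p under 0.05 (limma, Benjamini-Hochberg over all 25373 tested probes), and genes with several probes were counted by the brightest of them on average. The 75th percentile of the signal was 678 to 854 across the 4 arrays, no spot was saturated, and Pearson's r was 0.998 and 0.997 within the groups and 0.982 to 0.984 between them across all probes, which do not count as replicates. With so few arrays, precision is limited by their number. An exact two-sided permutation test of 2 against 2 arrays cannot go below p = 0.333, so every adjusted p rests on the variance that limma shares across probes.

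Receptor genes were more often higher than lower with imatinib. Of the 40 tested genes, 23 (57.5%) were higher, 7 (17.5%) were lower and 10 were not called, where 19.5% of all 20542 tested genes were called higher and 21.7% lower (41.1% in either direction). Of the receptor genes, 9 (22.5%) were at least 2-fold higher and 1 (2.5%) was at least 2-fold lower. The shares of all tested genes were 6.29% and 1.31%. These 2-fold counts became 5 and 1 with median centring or spike-in scaling, and 2 and 0 with normexp background correction. The 2-fold shares of all genes were not counted under those settings. The groups did not overlap in 35 receptor genes (87.5%), against 72.7% of all tested genes. The median difference of the receptor genes was 0.40, and that of all tested genes was 0.01. By probe, 26 of 48 were higher and 8 lower, where 19.3% and 22.5% of all tested probes were, or 41.9% in either direction.

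These counts depended on the scaling and on single arrays. Median centring placed the median difference of all tested probes at -0.19 and spike-in scaling placed it at -0.28. The receptor median became 0.21 and 0.12. The counts higher and lower became 17 and 10 with median centring and 15 and 11 with spike-in scaling. Of all tested probes, 13.03% were then higher and 36.46% lower with median centring, and 11.0% and 46.3% with spike-in scaling. Without imatinib array 1 the counts were 13 higher and 3 lower, and without imatinib array 2 they were 14 and 2. Calls fell across the array as well, to 10.1% higher and 6.15% lower of all probes without imatinib array 1, and 9.52% and 6.40% without imatinib array 2. Of the 30 called genes, 14 kept their call and direction under every alternative run for the probe. Il10ra was lower, and the others were higher: Il2ra, Il2rb, Il7r, Il15ra by its brighter probe, Il3ra, Il5ra, Csf2rb2, Il6ra, Il11ra1, Il18r1, Il1r1, Il1rl1 and Ifngr1. For Il15ra this holds for that probe alone, as its dimmer probe was called lower (-0.50). Il1r1 and Il1rl1 were above background with imatinib only. The alternative with probes above background on all arrays left both out, so it could not test their calls.

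**Figure D1:**
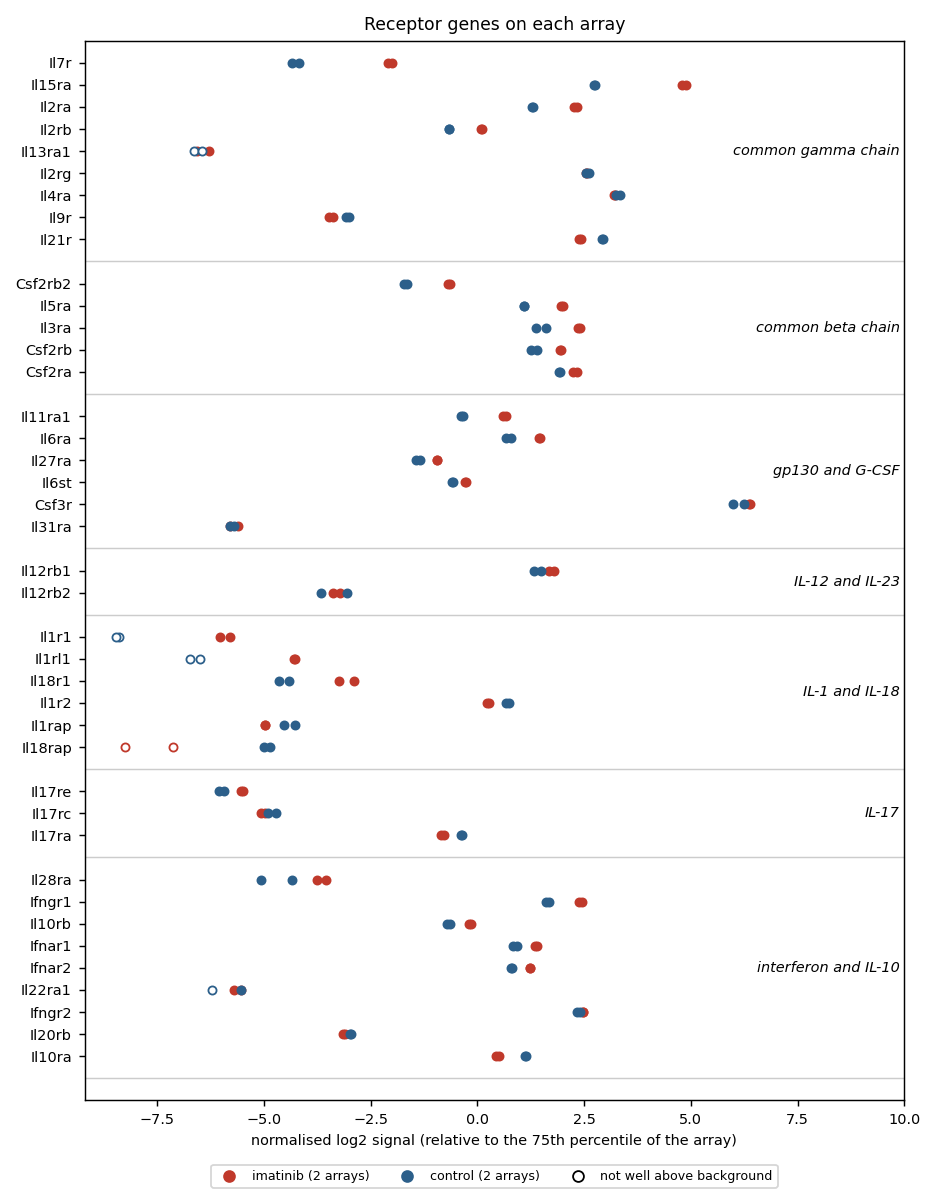
Normalised log2 signal (x axis) of the 40 tested receptor genes on each of the 4 arrays, grouped by receptor family, with red points for imatinib, blue points for control and open points for arrays on which the probe was not well above background. The red and blue pairs are well apart for Il7r (-2.10 and -2.01 against -4.35 and -4.18), those of Il2rg overlap (2.55 and 2.57 against 2.54 and 2.61), and those of Il4ra lie close without overlap (3.20 and 3.22 against 3.34 and 3.25).

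The shared gamma chain and the IL-4 receptor chain, which receive the IL-4 in the medium, did not pass the test. Il2rg read 2.55 and 2.57 with imatinib and 2.54 and 2.61 without. Its groups overlapped, with a difference of -0.02 (SE 0.061, adjusted p = 0.86). Il4ra, the chain that binds IL-4, read 3.20 and 3.22 with imatinib and 3.34 and 3.25 without by its brighter probe, a difference of -0.08 (SE 0.064, adjusted p = 0.36). The imatinib values lay just below the control values. With spike-in scaling both Il2rg and Il4ra were called lower, and with median centring Il4ra alone of these was. Il13ra1, the other partner of Il4ra, was near the detection limit: it read -6.28 and -6.57 with imatinib, where it was above background, and -6.64 and -6.44 without, where it was not, and the difference was 0.12 (SE 0.14, adjusted p = 0.52). The IL-13 decoy receptor Il13ra2 was above background on no array.

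Cytokine-binding chains that pair with Il2rg moved in both directions around it. Il7r, the IL-7 receptor chain of developing and resting lymphocytes, rose from -4.35 and -4.18 on the control arrays to -2.10 and -2.01 on the imatinib arrays. Every imatinib value was above every control value, with a difference of 2.21 (SE 0.089, adjusted p = 0.00095), or 4.63-fold; with normexp background correction the difference was 1.20. Il2ra, the inducible alpha chain of the IL-2 receptor (CD25), rose from 1.31 and 1.28 to 2.33 and 2.26, a difference of 1.01 (SE 0.062, adjusted p = 0.0020). Il2rb, the signalling chain of the IL-2 and IL-15 receptors, rose from -0.67 on both control arrays to 0.08 and 0.12, a difference of 0.77 (SE 0.058, adjusted p = 0.0031).

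The IL-21 and IL-9 receptor chains went the other way. Il21r, through which IL-21 acts on activated B cells, fell from 2.91 and 2.94 to 2.43 and 2.37, a difference of -0.53 (SE 0.060, adjusted p = 0.0071). No imatinib value reached a control value, but without imatinib array 2 the adjusted p was 0.057. Il9r fell by 0.40 (adjusted p = 0.017) by its brighter probe, with adjusted p-values of 0.10 and 0.072 without imatinib array 1 or 2 and 0.055 without control array 1, and normexp correction gave -0.12 (adjusted p = 0.18). Its dimmer probe read -0.12 (adjusted p = 0.44).

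Set against Il2rg on the same array, a comparison that no scaling constant can change, the differences were 2.23 for Il7r (SE 0.065), 1.02 for Il2ra (SE 0.064), 0.78 for Il2rb (SE 0.036), -0.07 for Il4ra (SE 0.075) and -0.51 for Il21r (SE 0.041). The cytokine-binding chains of Il7r, Il2ra and Il2rb thus gained on the shared chain by more than the spread between arrays, and Il21r lost on it. These ratios show unequal change of the chains and carry no test of their own.

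Il15ra, which presents IL-15, gave opposite calls by its 2 probes. The brighter probe read 4.88 and 4.80 with imatinib and 2.74 and 2.77 without, a difference of 2.09 (SE 0.064, adjusted p = 0.00074). The dimmer probe read -2.61 and -2.69 with imatinib and -2.14 and -2.17 without, a difference of -0.50 (SE 0.064, adjusted p = 0.0090; adjusted p = 0.051 and 0.065 without imatinib array 1 or 2). Both probes separated the groups, in opposite directions. The brighter probe holds a run of TG repeats, as does the dimmer probe of Il4ra. These stretches are shown because the other probe of each gene gave a different call. They are bases 26 to 55 and 15 to 44 of 60-base probes, printed as in the scanner files, with the run in capitals:
Il15ra: tatgtaTGTGTGTGTGTGTGTGTatgtaaa
Il4ra: tgccagcacTGTGTGTGTGTGccacatgga

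The runs are 17 bases long in Il15ra and 12 bases long in Il4ra. At least 20 bases of the Il15ra probe recur in 8 probes of other gene names, all 8 of them called higher, with a median difference of 1.82. Among all tested probes with a TG run of 16 to 19 bases, 21 of 21 were higher (median 1.97), and with a run of 12 to 15 bases 32 of 36 were higher and 0 lower, over a range of 0.08 to 2.24. The Il4ra probe with the run read -1.02 and -0.99 with imatinib and -1.45 and -1.55 without, a difference of 0.49 (SE 0.067, adjusted p = 0.0099; 0.060 and 0.068 without imatinib array 1 or 2), where the brighter probe without a run gave -0.08. No other receptor probe on the array held a repeat run of at least 12 bases. How much the repeats add to these 2 probes was not tested. Leaving out probes with such runs, an alternative chosen after seeing the data, turned Il15ra from higher to lower and left 22 receptor genes higher and 8 lower.

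**Figure D2:**
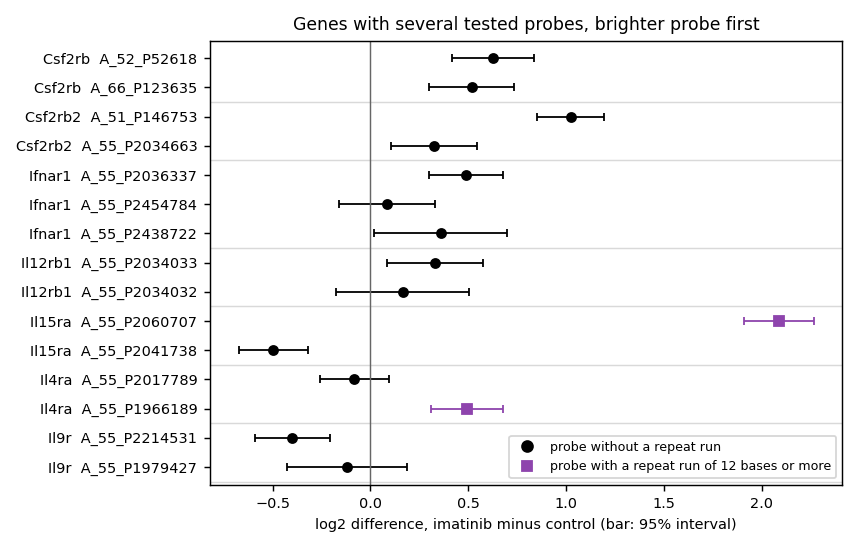
Log2 difference, imatinib minus control (x axis), of the probes of the 7 receptor genes with several tested probes, the brighter probe first, with 95% intervals from limma as bars and purple squares for probes with a repeat run of at least 12 bases. The Il15ra probes lie at 2.09 and -0.50 on opposite sides of 0, and the Csf2rb and Csf2rb2 probes lie all to the right of it.

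All 5 tested chains of the IL-3, IL-5 and GM-CSF receptors rose with imatinib, with a median difference of 0.89. The common beta chain Csf2rb rose from 1.25 and 1.39 to 1.96 and 1.94, a difference of 0.63 (SE 0.075, adjusted p = 0.0078), and its dimmer probe gave 0.52 (adjusted p = 0.012). The groups did not overlap by either probe; without imatinib array 1 the brighter probe had an adjusted p of 0.052, and without imatinib array 2 or control array 2 the dimmer probe had 0.072 and 0.0503. Csf2rb2, the mouse paralogue of the common beta chain that serves IL-3 alone, rose from -1.71 and -1.65 to -0.68 and -0.63, a difference of 1.02 (SE 0.062, adjusted p = 0.0019). Its dimmer probe read -1.60 and -1.49 with imatinib and -1.93 and -1.82 without, a difference of 0.33 (adjusted p = 0.038), and lost its call when any array was left out, with adjusted p-values of 0.098 and 0.18 without imatinib array 1 or 2 and 0.10 and 0.065 without control array 1 or 2. Quantile normalization (0.27, adjusted p = 0.054), median centring (0.14, adjusted p = 0.31) and spike-in scaling (0.045, adjusted p = 0.72) ended this call too.

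The beta chains are close copies of each other, and part of the brighter probes of both genes is shown to make this visible. The stretches are bases 30 to 59 of the Csf2rb probe and 12 to 41 of the Csf2rb2 probe, with the bases that differ in capitals:
Csf2rb: ggcagatcaaAtgtCccttggtctCtgttc
Csf2rb2: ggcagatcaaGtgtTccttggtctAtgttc

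Of these 30 bases 27 were identical and 3 differed, so each probe could also bind RNA of the other gene, and the levels of these genes are uncertain to that extent. Il3ra, the IL-3 binding chain, rose from 1.61 and 1.38 to 2.35 and 2.41 (difference 0.89, SE 0.10, adjusted p = 0.0069). Il5ra, the IL-5 binding chain of B-1 cells and eosinophils, rose from 1.10 and 1.08 to 2.00 and 1.97 (difference 0.89, SE 0.058, adjusted p = 0.0022). Csf2ra, the GM-CSF binding chain, rose least, from 1.92 and 1.93 to 2.34 and 2.25 (difference 0.37, SE 0.065, adjusted p = 0.018). In none of these 3 genes did the groups overlap. The Csf2ra call was lost with median centring (0.18) and spike-in scaling (0.09), and when any array was left out (adjusted p = 0.11 and 0.074 without imatinib array 1 or 2, 0.056 and 0.059 without control array 1 or 2). Relative to Csf2rb on the same array the differences were 0.26 for Il3ra (SE 0.19), 0.27 for Il5ra (SE 0.080) and -0.26 for Csf2ra (SE 0.076), so Il3ra did not part from the shared chain beyond the spread between arrays.

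Of the 6 tested genes of the gp130 family and the G-CSF receptor, 4 rose and none was called lower. Il11ra1, the IL-11 binding chain, rose from -0.39 and -0.34 to 0.68 and 0.61, a difference of 1.01 (SE 0.065, adjusted p = 0.0022), with no overlap of the groups; the mouse has a close copy, Il11ra2, which was not told apart from it here. Il6ra, the IL-6 binding chain, rose by 0.73 (SE 0.070, adjusted p = 0.0050), which was 0.42 (SE 0.069) more than its partner Il6st. Il6st rose by 0.31 (SE 0.058, adjusted p = 0.021) and Il27ra, the IL-27 binding chain, by 0.44 (SE 0.065, adjusted p = 0.012).

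The Il6st and Il27ra calls were lost with median centring (0.12 and 0.25) and spike-in scaling (0.02 and 0.16). Without imatinib array 1 or 2 the adjusted p was 0.13 and 0.11 for Il6st and 0.075 and 0.076 for Il27ra, and without either control array it was 0.060 for Il6st. Csf3r, the G-CSF receptor of neutrophils, read 6.37 and 6.40 with imatinib and 6.24 and 5.99 without, a difference of 0.27 that was not called (SE 0.10, adjusted p = 0.12) but was with normexp correction, with the trend and robust variance and without control array 1. Bases 31 to 60 of the Csf3r probe are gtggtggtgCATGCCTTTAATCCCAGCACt, and the 20 bases in capitals recur in 2 probes of other gene names; whether those transcripts add to its signal was not tested. The Csf3r values may therefore not be those of Csf3r alone. Il31ra gave 0.04 (adjusted p = 0.74).

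In the IL-1 and IL-18 family 3 tested genes were called higher and 3 lower. Of these 6 genes, 3 were above background in 1 group alone. For these a fold written as "at least" follows a convention and is not a firm limit. The mean of the bright group was set against a floor averaged over the dim arrays. On each array this floor was the lowest signal well above background, or the probe's own signal where that was higher. Probes not above background can exceed the lowest such signal, as Il22ra1 did on control array 2 (-6.21 against -6.37). Normexp background correction gave smaller differences for all 3.

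Il1rl1, the IL-33 receptor ST2 of mast cells and type 2 lymphocytes, read -4.28 and -4.30 with imatinib and, not above background, -6.50 and -6.73 without. It was at least 4.24-fold higher with imatinib (fitted difference 2.32, adjusted p = 0.0010; 0.66 with normexp). Its other 2 probes were above background on no array. Il1r1, the signalling receptor of IL-1, read -5.80 and -6.04 with imatinib and, not above background, -8.39 and -8.47 without, and was at least 1.37-fold higher (fitted difference 2.51, adjusted p = 0.00097; 0.40 with normexp).

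The chains of the IL-18 receptor moved in opposite directions. Il18r1, which binds IL-18, was above background on all 4 arrays and rose from -4.42 and -4.64 to -2.89 and -3.23, a difference of 1.47 (SE 0.15, adjusted p = 0.0060; 0.78 with normexp). Il18rap, its accessory chain, read -4.85 and -5.00 without imatinib and, not above background, -8.25 and -7.14 with it. It was at least 2.95-fold lower with imatinib (fitted difference -2.77, adjusted p = 0.011). The groups did not overlap in either chain, but the Il18rap call was lost with normexp (-0.19, adjusted p = 0.071) and without control array 2 (adjusted p = 0.051).

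The other called genes of this family were the decoy receptor and the shared accessory chain of IL-1. Il1r2, the decoy, fell by 0.47 (SE 0.062, adjusted p = 0.0094), and Il1rap, the accessory chain, fell by 0.57 (SE 0.11, adjusted p = 0.021; -0.06 with normexp). Without imatinib array 1 or 2 the adjusted p was 0.069 and 0.060 for Il1r2 and 0.085 and 0.090 for Il1rap. Il1rapl1, Il1rapl2 and Il1rl2 were above background on no array.

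Downstream of the IL-1 family, 1 of 11 genes of the MyD88 arm was called higher and 2 lower, with a median of -0.01, against 19.5% and 21.7% of all tested genes. Named after their values were seen, these were the adaptor Myd88 (-0.55, adjusted p = 0.0068), the inhibitory kinase Irak3 (-0.57, adjusted p = 0.0089) and the ubiquitin ligase Traf6. Traf6 gave 0.35 (adjusted p = 0.027) by its brighter probe and -0.16 (adjusted p = 0.20) by the other.

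**Figure D3:**
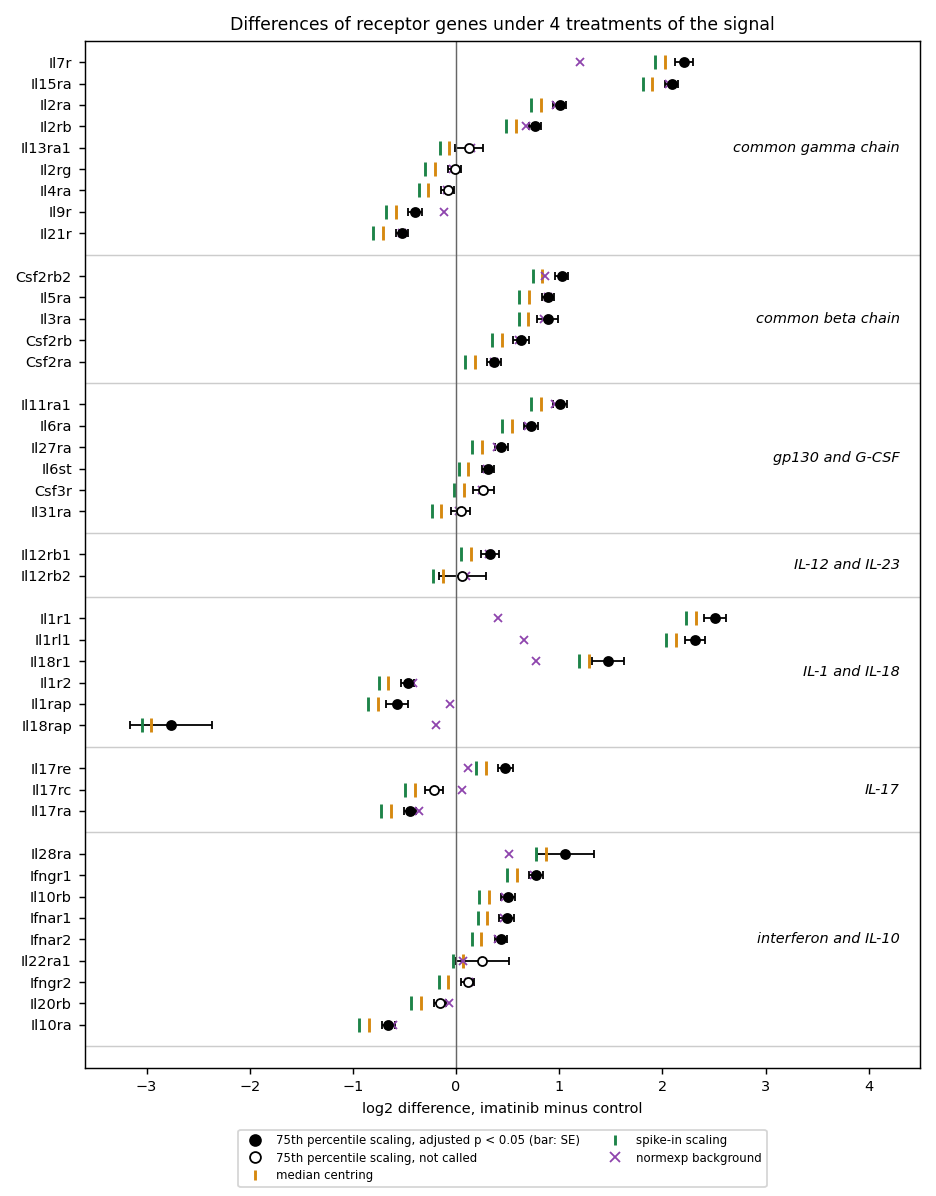
Log2 difference, imatinib minus control (x axis), of the 40 tested receptor genes, with filled circles for called genes, open circles for others and bars of 1 SE, beside the difference after median centring, spike-in scaling and normexp background correction. The scalings move every gene left together, while normexp moves some genes far more than others, such as Il1r1 from 2.51 to 0.40 and Il18rap from -2.77 to -0.19 against Il2ra from 1.01 to 0.96.

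Of 9 tested chains of the interferon and IL-10 receptors, 5 rose and 1 fell. Ifngr1, which binds interferon gamma, rose from 1.67 and 1.62 to 2.46 and 2.38, a difference of 0.77 (SE 0.065, adjusted p = 0.0038). Its partner Ifngr2 read 2.48 on both imatinib arrays and 2.41 and 2.33 without, a difference of 0.11 (SE 0.064, adjusted p = 0.24). The chains of this receptor changed unequally, by 0.66 (SE 0.043) on the same arrays.

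The chains of the IL-10 receptor moved in opposite directions. Il10ra, which binds IL-10, fell from 1.13 and 1.11 to 0.43 and 0.50, a difference of -0.66 (SE 0.062, adjusted p = 0.0049). Il10rb, the accessory chain that IL-22 and interferon lambda also use, rose from -0.72 and -0.64 to -0.15 and -0.20, a difference of 0.50 (SE 0.065, adjusted p = 0.0089). The groups overlapped in neither chain, and Il10rb gained 1.16 on Il10ra (SE 0.078). The Il10rb call was lost with spike-in scaling (0.22), and without imatinib array 1 or 2 its adjusted p was 0.063 and 0.057.

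The chains of the type I interferon receptor rose to a like extent, Ifnar1 by 0.49 (SE 0.069, adjusted p = 0.011) and Ifnar2 by 0.43 (SE 0.057, adjusted p = 0.0093). They differed from each other by 0.06 (SE 0.063). Without imatinib array 1 or 2 the adjusted p was 0.071 and 0.059 for Ifnar1 and 0.070 and 0.068 for Ifnar2. Spike-in scaling ended both calls (0.21 and 0.15) and median centring that of Ifnar2 (0.25). The other 2 Ifnar1 probes gave 0.09 and 0.36 and were not called.

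Il28ra, now named Ifnlr1, the interferon lambda binding chain, read -3.55 and -3.75 with imatinib and -4.34 and -5.08 without. The difference was 1.06 (SE 0.28, adjusted p = 0.045). Its call was lost with quantile normalization (0.87, adjusted p = 0.052) and with no filter on dim probes (adjusted p = 0.12), and normexp gave 0.51. The control arrays lay far apart, and without imatinib array 1 or 2 the adjusted p was 0.14 and 0.10. Il20rb (-0.15, adjusted p = 0.11) and Il22ra1 (0.25, adjusted p = 0.47) were not called, although Il20rb was called lower with quantile normalization, median centring and spike-in scaling, and Il22ra1 higher without control array 1 (0.60, adjusted p = 0.040). Il20ra was above background on no array and the IL-22 binding protein Il22ra2 was so on imatinib array 2 alone.

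Of 5 tested chains of the IL-12, IL-23 and IL-17 receptors, Il12rb1 and Il17re were called higher and Il17ra lower. Il12rb1, shared by IL-12 and IL-23, gave 0.33 (SE 0.089, adjusted p = 0.049) by its brighter probe and 0.16 (adjusted p = 0.34) by the other. Its call was lost with median centring (0.14) and spike-in scaling (0.049), and when any array was left out (adjusted p = 0.20 and 0.12 without imatinib array 1 or 2, 0.052 and 0.13 without control array 1 or 2). Il12rb2 gave 0.06 (adjusted p = 0.85), with overlapping groups, and Il23r was above background on imatinib array 2 alone.

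Il17ra, the chain shared by the IL-17 receptors, fell by 0.44 (SE 0.061, adjusted p = 0.010), with adjusted p-values of 0.058 and 0.074 without imatinib array 1 or 2. Il17re, the IL-17C binding chain, rose by 0.48 (SE 0.075, adjusted p = 0.013) at a dim signal; its call was lost with quantile normalization (0.27), median centring (0.29), spike-in scaling (0.20), normexp (0.12) and the trend and robust variance, and without imatinib array 1 or 2 (adjusted p = 0.069 and 0.080). Il17rc gave -0.21 (adjusted p = 0.13) and was called lower with quantile normalization, median centring and spike-in scaling. Il17rb was above background on no array and Il17rd on imatinib array 2 alone.

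Genes of the same pathways outside the receptors were counted from lists. Of 39 ligand genes 19 were tested, with 8 higher, 2 lower and a median of 0.41, where 19.5% of all tested genes were higher and 21.7% lower. Lif, a gp130 cytokine, was the highest of those measured on all arrays, at -2.75 and -2.68 with imatinib and -5.25 and -5.63 without (difference 2.72, SE 0.15, adjusted p = 0.0015). Ifng, the ligand of Ifngr1, read -2.07 and -2.09 with imatinib and -4.45 and -4.36 without (difference 2.33, SE 0.064, adjusted p = 0.00071). Il10, the ligand of Il10ra, rose by 1.32 (SE 0.069, adjusted p = 0.0014) where Il10ra fell, and the gp130 cytokine Ctf1 rose by 1.01 (SE 0.13, adjusted p = 0.0090). The genes of IL-2, IL-3, IL-4, IL-5, IL-7, IL-9 and IL-21 were above background on no array.

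Among the 11 JAK kinases and STAT factors, 3 were higher and 1 lower, with a median of -0.02, where 19.5% and 21.7% of all tested genes were. Stat5a and Stat5b, used by the receptors of IL-2, IL-3, IL-5, IL-7 and GM-CSF, rose by 1.24 (SE 0.082, adjusted p = 0.0023) and 0.98 (SE 0.071, adjusted p = 0.0028). Jak2, bound by the common beta chain, rose by 0.78 (adjusted p = 0.0045), and Stat4, used by the IL-12 receptor, fell by 0.70 (adjusted p = 0.0049). Stat6, the factor of the IL-4 receptor, gave 0.19 (adjusted p = 0.075) by its brightest probe, and its other probes disagreed: 1 gave -0.20 (adjusted p = 0.070) and 1 was called higher (0.47, adjusted p = 0.0096).

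Of 16 feedback inhibitors of these receptors, 6 were higher and 2 lower, with a median of 0.14, beside the same shares of all tested genes. Cish, a STAT5 target that inhibits STAT5 signalling, read 4.41 and 4.40 with imatinib and 2.27 and 2.22 without, a difference of 2.15 (SE 0.058, adjusted p = 0.00071). Socs5 rose by 1.74 (adjusted p = 0.00080), Socs2 by 1.65 (adjusted p = 0.0011) and Socs1 by 1.21 (adjusted p = 0.0040), where Socs3 was not called (-0.22, adjusted p = 0.13).

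Promoters of the receptor genes were searched for the palindromes TTCNNNGAA and TTCNNNNGAA, the spacings known from STAT5 and from STAT6 binding; each reads the same on both strands, and no match of either spacing overlapped a match of the other in these genes. Windows from 250 bases before to 50 bases after the start (RefSeq, GRCm38.p6) were found for 41 of the 49 genes. TTCNNNGAA was in 8 of 41 (19.5%), against 9.6% of 27025 genes, and TTCNNNNGAA in 5 of 41 (12.2%), against 8.0%. Of the 18 matched genes called higher 5 held TTCNNNGAA, of the 5 called lower 1 did (Il1r2), and of the 10 not called 2 did. For TTCNNNNGAA these counts were 2 of 18, 1 of 5 and 1 of 10. Stretches of 3 called genes that rose are shown, with the match in capitals, as an example of the letters counted:
Il7r (chr15:9529999-9530028, minus strand): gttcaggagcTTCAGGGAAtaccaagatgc
Csf2rb2 (chr15:78305717-78305746, minus strand): gtgtccacaaTTCTGAGAAgcaagcaaagc
Il18r1 (chr1:40465777-40465806, plus strand): tcggggttagTTCTGGGAActgtggagctc

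The matches begin at positions -142, -15 and -219 relative to the annotated start whose window held them. Il18r1 has several annotated starts, and -219 counts from the start of the window shown. The matches describe the letters of these windows and no binding was measured.

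Markers of cell types that carry these receptors went in both directions. In these bulk cultures a lower share of a cell type and less RNA per cell cannot be told apart. Of 10 T cell markers 8 were higher and 0 lower, with a median of 1.99, beside the rises of Il7r, Il2ra, Il2rb and Il18r1; their summed signal was 3.87 and 3.92 (log2) with imatinib and 2.59 and 2.38 without. Of 9 tested macrophage markers of 11 on the array, 5 were higher and 0 lower (median 0.52, summed 3.11 and 3.12 against 2.00 and 1.94), beside the common beta chain genes, Ifngr1 and Il6ra. Of 9 neutrophil markers 5 were tested, with 4 higher and 1 lower (median 1.96), beside Il1r1 and the uncalled Csf3r. Their summed signal was 1.08 and 1.22 with imatinib and 1.38 and 1.34 without. The neutrophil markers Mmp9, Ngp and Retnlg were above background on no array.

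Of 9 mast cell and basophil markers 4 were tested, all 4 higher (median 1.52, summed -0.84 and -0.85 against -2.09 and -2.20), beside Il1rl1 and Il3ra, while the other 5, among them Fcer1a, Ms4a2 and Gata2, were above background on no array. Of 7 NK cell markers 6 were above background on no array, and Eomes, which T cells also express, was higher, at -2.44 and -2.58 against -3.54 and -3.31 (difference 0.91, adjusted p = 0.0082), beside Il2rb and Il18r1; its dimmer probe was also called higher, with no signal above background without imatinib. Of 9 B cell markers 1 was higher and 5 lower, with a median of -0.25 and summed signals of 8.39 and 8.42 against 8.58 and 8.48, beside the lower Il21r. Of 7 dendritic cell markers 4 were tested, with 1 higher, 1 lower and 2 not called (median 0.15). Of 6 endothelial and stromal markers 3 were tested, with 0 higher and 1 lower (median -0.72). The receptors named beside these lists are not every receptor that such cells may carry. Il18rap, the partner of Il18r1, fell (fitted difference -2.77), as did the IL-1 decoy Il1r2 (-0.47). Il5ra, a chain of B-1 cells, rose (0.89). The part of any of these cell types in the receptor differences was not tested.

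**Figure D4:**
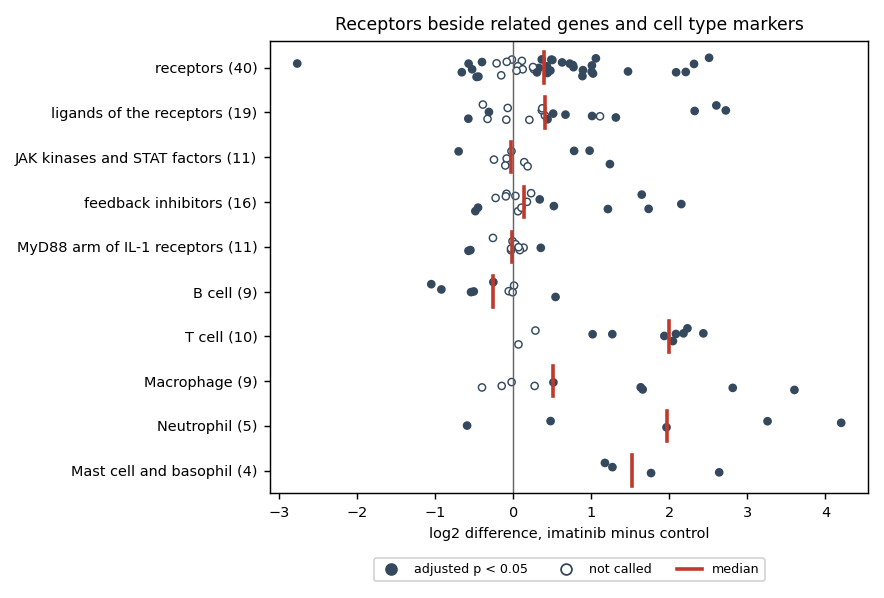
Log2 difference, imatinib minus control (x axis), of each tested gene by its brightest probe in the receptor set, 4 lists of related genes and 5 lists of cell type markers, with filled points for called genes, open points for others, red lines for medians and the number of tested genes in brackets. The receptor median (0.40) lies near that of the ligands (0.41), above those of the JAK and STAT genes (-0.02) and the MyD88 arm (-0.01), and below that of the T cell markers (1.99).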

How the data were processed

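RNA of 4 samples of cultured splenocytes, 2 with imatinib and 2 without, was hybridised with 1 dye (Cy3) to Agilent arrays of 1 slide, where positions 1 and 3 held control and positions 2 and 4 held imatinib samples, per the labels. In the deposited scanner files the values are spot intensity, which the authors extracted with Agilent Feature Extraction, background-subtracted and not scaled between arrays, per the file headers. The deposited value table holds log2 values; per the labels the authors used GeneSpringGX, and each column matched log2 intensity minus a constant within 0.01 for 99.88 to 99.93% of probes. Its column medians were -3.99 and -3.92 (imatinib) and -4.10 and -4.17 (control).

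Control spots were left out, spots of a probe were averaged without outlier-marked spots, and each array was scaled to its own 75th percentile. Probes well above background throughout either group were kept (25435), and 62 of them with a marked value were left out. Groups were compared with limma 3.58.1 (lmFit, eBayes, two-sided) in R 4.3.3, with 2 residual and 2.05 prior degrees of freedom and a prior SD of 0.0791. The code was tested on simulated data. The number of arrays limits the precision.

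The receptors and lists were chosen with earlier results of these data known. Every receptor gene was accounted for. Values on every array were given for called probes changed at least 2-fold, bounds, the IL-4 receptor chains and their other probes, and, added after their values were seen, for Il2rb, Il21r, Csf2rb, Il3ra, Il5ra, Csf2ra, Csf3r, Ifngr1, Ifngr2, Il10ra and Il10rb. Of the ligand, JAK-STAT and feedback lists, the 4 called genes with the largest change were named, those measured on all arrays first; Stat6 and Socs3 were added after their values were seen. Of the 67 probes, 66 matched RefSeq (GRCm38.p6) by accession and 1 by symbol. Alternatives were normexp (offset 50), quantile normalization, median centring, scaling by 8 spike-in probes, other filters, a replicate block, each array left out, the value table, a trend and robust variance, the mean of the probes of a gene and, added after seeing the data, no repeat-run probes. Same-numbered arrays did not deviate together (correlation -0.0695), so the numbers were not taken as pairs.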

Additional observations from a re-analysis of the deposited data

How the results depend on the processing

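Counts of receptor genes are given as higher and lower, beside 23 and 7, with the median difference beside 0.40. Normexp correction gave 23 and 4 (0.34), median centring 17 and 10 (0.21) and spike-in scaling 15 and 11 (0.12). No filter on dim probes gave 16 and 4. Probes above background on all arrays gave 21 and 6 (0.43), without Il1r1, Il1rl1 and Il18rap. The median was 0.34 with the mean of the probes of a gene and 0.35 with no repeat-run probes. It was 0.37 with no repeat-run probes above background on all arrays. Of all tested probes, 26.3% were higher and 23.5% lower with normexp correction. These shares were 7.2% and 5.4% with no filter, and 19.45% and 24.76% with probes above background on all arrays. Leaving out each array in turn gave 13 to 22 higher, 2 to 6 lower and medians of 0.38 to 0.43. With the replicate block the counts were 20 and 6 (0.40), although the numbers are not known to pair the samples. The block ended the calls of Csf2ra, Il12rb1, Il6st and Il9r. Testing with no filter on dim probes ended these calls too, and those of Ifnar1, Il17re, Il27ra, Il28ra, Il17ra and Il1rap. Quantile normalization, the value table, and the trend and robust variance gave 21 and 9, 23 and 7, and 23 and 7. Of all tested probes, 17.8% were higher and 25.1% lower with quantile normalization, and 19.1% and 23.5% with the value table. The shares were 22.45% and 27.85% with the trend and robust variance, and 14.4% and 13.8% with the replicate block.

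With the probe of each called gene held fixed, 387 comparisons with an alternative were made: 316 kept the call and direction, 71 kept the direction without the call and 0 reversed. Leaving out repeat-run probes changes the probe, and turned Il15ra from higher (2.09) to lower (-0.50). Other sign changes were in probes not called at the 75th percentile scaling. With median centring and spike-in scaling these were -0.10 and -0.20 for an Ifnar1 probe, -0.075 and -0.17 for Ifngr2, -0.022 and -0.12 for the dimmer Il12rb1 probe, -0.13 and -0.22 for Il12rb2, -0.065 and -0.16 for Il13ra1, and -0.14 and -0.24 for Il31ra, and with spike-in scaling alone -0.016 for Csf3r and -0.027 for Il22ra1. Quantile normalization gave -0.11 for Il12rb2, -0.098 for Il13ra1, -0.15 for Il31ra, 0.072 for Il2rg and 0.012 for Il4ra, and normexp 0.057 for Il17rc and 0.021 for the dimmer Il9r probe. With each array left out in turn the range was -0.0031 to 0.17 for that Ifnar1 probe, -0.25 to 0.37 for Il12rb2, -0.023 to 0.27 for Il13ra1, -0.087 to 0.60 for Il22ra1, -0.049 to 0.018 for Il2rg, and -0.055 to 0.14 for Il31ra. The cause of these shifts was not tested. Signals near background limit Il1r1, Il1rl1, Il18rap, Il1rap, Il17re and Il13ra1.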
